A study of Mus musculus with 5 samples.

Results

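Spp1, Serpine2, Agt, Hapln1, Ccl5 and Cd2 encode 5 secreted proteins and 1 protein of the cell surface, and are 6 of the 36529 genes in the deposited tables. They were chosen by their measured level, which was high in alpha cells without the glucagon receptor or in tumors, so differences between genotypes and between tumor and islet are given as a description, with no test. The data are single-cell libraries of mouse pancreatic islets and tumors made with a droplet 3' RNA kit that counts transcripts by unique molecular identifiers (UMIs). There was 1 islet library from GCGR heterozygous mice, 1 from a GCGR homozygous knockout and 3 from tumors of the GCGR homozygous knockout, where Gcgr encodes the glucagon receptor. All libraries thus carried at least 1 knockout allele. The tumors are called A, B and C here, because the deposited library names match no single numbered tumor sample. The labels name no treatment, and strain, age, sex, how the allele was made and the number of animals behind a library are not given in the sources used here. It is not stated that the tumors came from separate animals, so p-values measure the spread between libraries, which may be technical.

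Alpha cells make glucagon, and loss of its receptor is known to raise blood glucagon and amino acids and to make alpha cells multiply. Osteopontin (Spp1) is a matrix cytokine that binds integrins and Cd44, and Ccl5 is a chemokine that draws leukocytes through chemokine receptors. Serpine2 (protease nexin-1) inhibits thrombin and plasminogen activators, while Agt, angiotensinogen, is the substrate of renin and shares the serpin fold without inhibiting proteases. Hapln1 is a link protein that ties proteoglycans to hyaluronan, and Cd2 is an adhesion receptor best known on T cells and natural killer (NK) cells.

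A level is the sum of a gene's UMIs in a set of cells, scaled to 1000000 UMIs of that set (CPM), with exact Poisson intervals (95%) that cover counting error only. Alpha cells were those the authors typed as alpha, 306 in the heterozygous and 1525 in the homozygous islet, and with the 495, 846 and 1084 kept cells of tumors A, B and C they are called alpha-like. Median depth was 10002 and 14086 UMIs in the islet alpha cells and 19378 to 26092 UMIs in the tumors. All 8 alpha cell markers had UMIs in each of the 5 libraries, with Gcg, the glucagon precursor, between 284170 and 364264 CPM. Gcgr had 8 UMIs in alpha cells of the heterozygous islet, 0 of 22159839 UMIs in those of the homozygous islet, and 0, 1 and 3 in A, B and C. No cell name was shared between libraries. In bulk sums such as these, fewer expressing cells and less RNA per cell cannot be told apart, so shares of cells are given too.

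In GRCm38.p6 Spp1 lies on chromosome 5 from 104435111 to 104441053, Serpine2 on chromosome 1 from 79794317 to 79858665 and Agt on chromosome 8 from 124556587 to 124569706. Hapln1 lies on chromosome 13 from 89540529 to 89611832, Ccl5 on chromosome 11 from 83525778 to 83530518 and Cd2 on chromosome 3 from 101275908 to 101287939. The 250 bases before the annotated start are shown for osteopontin and for both members of the serpin family, whose levels followed unlike patterns over islets and tumors. The sequences are from RefSeq, whose promoter table held 4 of the 6 genes, and read 5' to 3' on the strand of the gene. Capitals mark matches of 3 motifs on either strand, TATAAA (the TATA box), CCAAT (the CCAAT box) and GGGCGG (a GC box); a 4th, TGANTCA (AP-1), was also searched.
Spp1 (chr5:104434861-104435110, plus strand): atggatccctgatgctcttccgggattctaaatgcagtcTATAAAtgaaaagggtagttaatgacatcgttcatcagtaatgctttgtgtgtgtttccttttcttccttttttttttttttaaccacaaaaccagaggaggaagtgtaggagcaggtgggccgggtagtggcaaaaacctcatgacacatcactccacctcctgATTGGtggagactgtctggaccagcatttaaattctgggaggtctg
Serpine2 (chr1:79858666-79858915, minus strand): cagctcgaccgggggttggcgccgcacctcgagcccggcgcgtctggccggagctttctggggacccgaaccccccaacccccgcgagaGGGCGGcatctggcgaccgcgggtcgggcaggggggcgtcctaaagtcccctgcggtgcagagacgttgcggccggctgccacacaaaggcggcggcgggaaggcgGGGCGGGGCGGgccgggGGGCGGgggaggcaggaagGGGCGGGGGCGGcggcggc
Agt (chr8:124569707-124569956, minus strand): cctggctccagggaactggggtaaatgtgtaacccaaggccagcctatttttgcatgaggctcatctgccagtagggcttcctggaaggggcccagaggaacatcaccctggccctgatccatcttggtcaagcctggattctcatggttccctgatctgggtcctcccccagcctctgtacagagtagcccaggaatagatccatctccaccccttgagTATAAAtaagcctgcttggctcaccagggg
Agt had the TATA box letters from 30 to 25 bases before its start, and Spp1 had them farther away, from 211 to 206 bases. For Spp1 there were 2 annotated starts. The one with the lower coordinate was used, so the Spp1 distances hold for that start only. Spp1 also held the CCAAT box letters on the other strand, from 46 to 42 bases before the start. Serpine2 held 6 matches of the GC box, a pair of which overlap by 1 base, and no TATA box letters. Of 32851 promoter windows of this length 12.4% held the TATA box, 33.8% the CCAAT box, 32.7% the GC box and 6.75% the AP-1 motif, which was in none of these 3 windows. A match describes letters in the window, and the 3' reads measured no promoter.

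Osteopontin was high in alpha cells of the homozygous islet and uneven between tumors. Spp1 stood at 49.1 CPM (41.8 to 57.4) in the heterozygous and 647 CPM (636 to 658) in the homozygous islet, 13.2 (11.3 to 15.5) times as high (exact binomial interval). Tumors A, B and C stood at 35.1, 409 and 135 CPM, a mean of 193 ± 193 CPM (SD, n = 3). Tumor A lay below the heterozygous alpha cells, while B and C lay between the islets. From high to low the order was homozygous, B, C, heterozygous and A, and no neighbours in it had overlapping intervals over all cells; in cells without immune marker UMIs, given with the shares, A lay above the heterozygous islet.

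**Figure D1:**
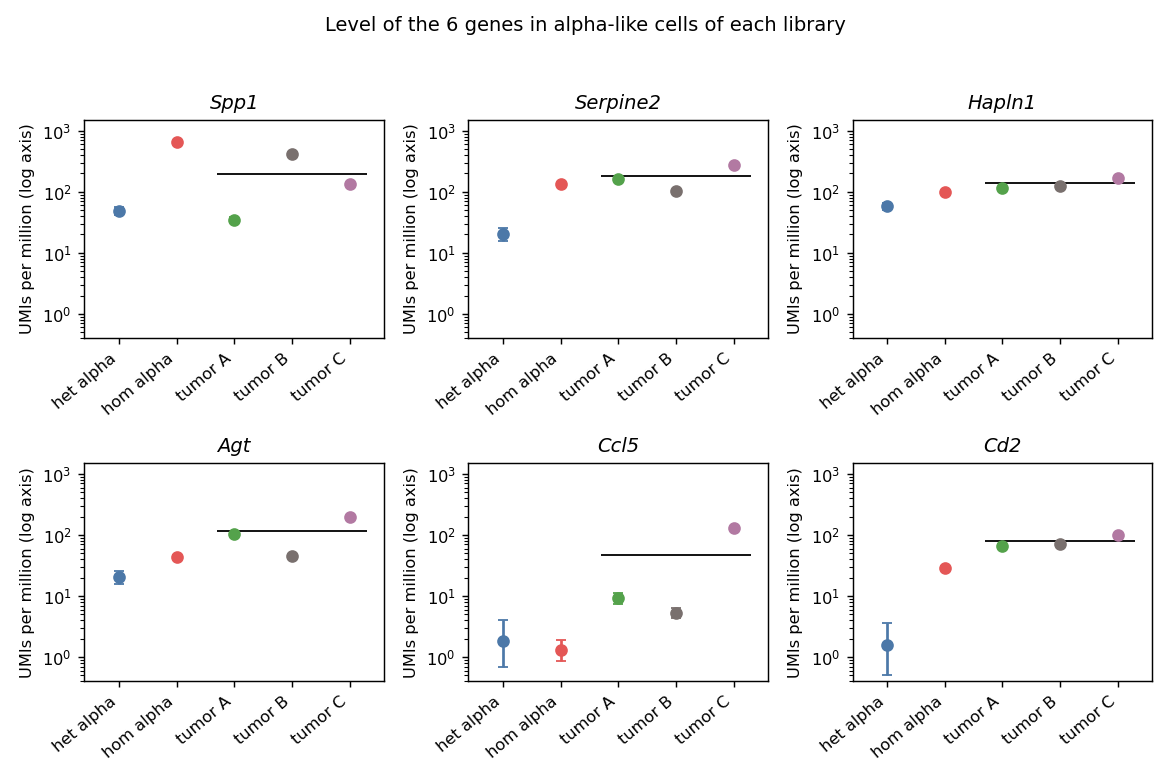
Level of the 6 genes (UMIs per 1000000, log axis) in alpha cells of the heterozygous (het) and homozygous (hom) islet and in tumors A, B and C. Points are libraries with exact Poisson intervals (95%), and the black line is the mean of the 3 tumors. Spp1 runs from 647 in hom to 35.1 in A, and Ccl5 stands out in C at 129. Hapln1 and Cd2 lie above both islets in all 3 tumors, for Hapln1 only with hormone transcripts in the totals.

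Other cell types of the homozygous islet held Spp1 too. PP cells, which make pancreatic polypeptide, had 421 CPM and delta cells, the somatostatin cells, 259.6 CPM. Beta cells had 38.6 CPM and endothelial cells 28.3 CPM. In the heterozygous islet delta cells had 51.3, beta cells 3.24 and endothelial cells 1.17 CPM. Heterozygous stellate cells had 27 Spp1 UMIs, held by 6.06% of 33 cells. The 4 PP cell markers summed to 16146 and 76768 CPM in alpha cells of the heterozygous and homozygous islet and to 2449, 363 and 585 CPM in A, B and C. They were thus highest where Spp1 was highest, and low in B, whose Spp1 was second in the order. Over all UMIs, PP cells of the homozygous islet had less Spp1 than its alpha cells. Without 8 hormone transcripts in the totals they had 1347 against 1297 CPM. After thinning to 5000 UMIs, 70.2% of these PP cells and 67.6% of the alpha cells had an Spp1 UMI. The part of PP cell RNA was not tested.

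**Figure D2:**
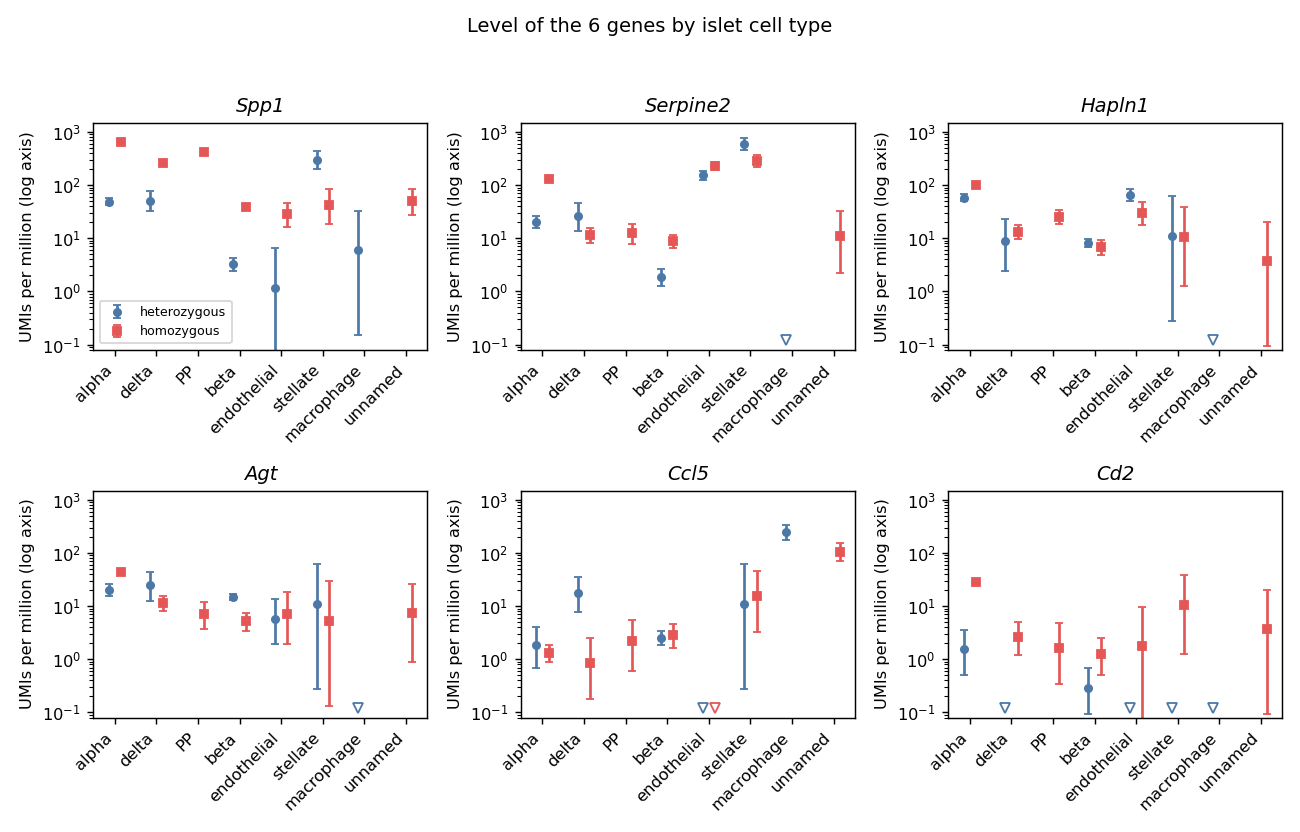
Level of the 6 genes (UMIs per 1000000, log axis) by cell type in the heterozygous and homozygous islet, with exact Poisson intervals (95%); open triangles at the base mark types with 0 UMIs. Spp1 is high in alpha, PP and delta cells of the homozygous islet, Serpine2 in endothelial and stellate cells of both, and Ccl5 in heterozygous macrophages and a homozygous type that the authors labelled unknown.

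Free RNA in droplets gives UMIs to cells that do not express a gene, and 1 source keeps its transcripts in 1 ratio. Spp1 was therefore set against Slc38a5, an amino acid transporter gene of these alpha cells. Homozygous alpha cells held 0.844 (0.826 to 0.863) Spp1 UMIs for each Slc38a5 UMI. Beta cells held 0.875 (0.726 to 1.05) and endothelial cells 1.00 (0.468 to 2.14), both with intervals that include the alpha value. Delta cells held 5.64 (4.76 to 6.71) and PP cells 9.52 (7.56 to 12.1), far above it. The same ratio for Serpine2 was 0.173 (0.166 to 0.180) in alpha, 0.202 (0.146 to 0.274) in beta and 8.19 (4.86 to 14.7) in endothelial cells, so the endothelial level stood apart. Free RNA of an islet can mix several cell types, PP and delta cells among them, so the alpha ratio is not a full reference for it. The endothelial Spp1 ratio rests on 16 UMIs of each gene. The source of these UMIs was not tested.

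**Figure D3:**
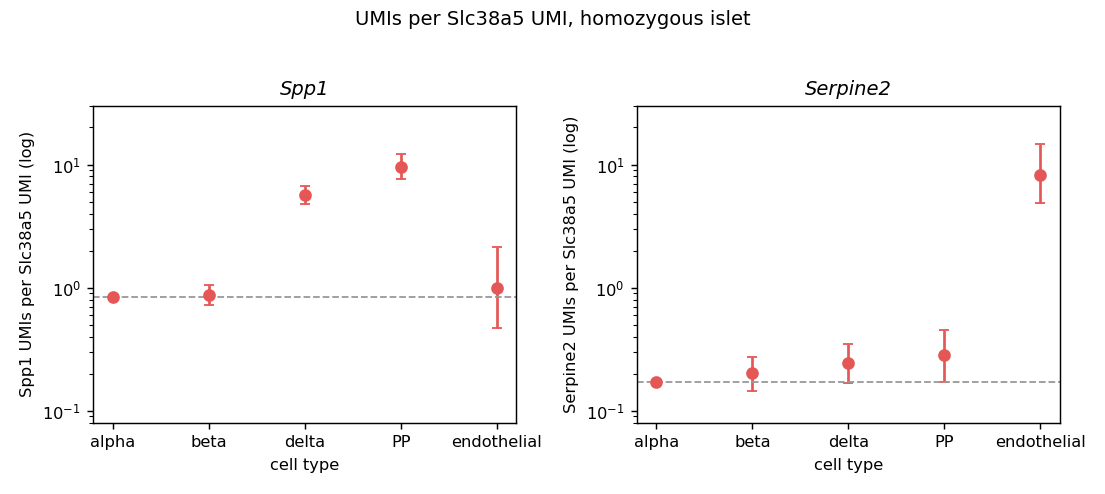
UMIs of Spp1 (left) and Serpine2 (right) per Slc38a5 UMI in cell types of the homozygous islet, on a log axis, with exact binomial intervals (95%); the dashed line is the alpha cell value. Spp1 in beta and endothelial cells sits at the alpha value and delta and PP cells sit above it, while for Serpine2 the endothelial cells stand apart at 8.19.

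With every cell thinned to 5000 UMIs, 15.4% of alpha cells in the heterozygous and 67.6% in the homozygous islet had an Spp1 UMI, against 14.8%, 57.6% and 25.4% in A, B and C. Shallower cells were left out: 47 and 98 alpha cells and 16, 4 and 16 tumor cells. Homozygous endothelial cells, with a median depth of 2061 UMIs, gave 17.6% of only 17 cells deep enough. The unthinned shares were 28.1%, 81.8%, 31.3%, 87.5% and 56.8%. In all 5 libraries a minority of cells carried most of the counted transcripts. The top 10% of cells by UMI count held 65.2% of the Spp1 UMIs in heterozygous and 50.1% in homozygous alpha cells, and 60.5%, 50.6% and 69.9% in A, B and C. Low counts and uneven depth raise such a share, and Spp1 had only 158 UMIs in heterozygous alpha cells and 354 in A. Ranked by CPM instead, the top 10% of cells of C also had more macrophage marker RNA than the rest, 700.4 against 257 CPM. In B they had 48.1 against 51.8 CPM. By detection at 5000 UMIs, a macrophage marker was in 62.4% and 62.5% of cells of C with and without Spp1. In cells with no UMI of macrophage markers or of T and NK markers other than Lck, Spp1 stood at 43.4 CPM (28.4 to 63.6) in 79 heterozygous, 707 CPM (689.6 to 724) in 743 homozygous, 55.5 CPM (36.9 to 80.2) in 43 A, 343 CPM (329 to 359) in 251 B and 79.6 CPM (56.3 to 109) in 37 C cells. In these cells the homozygous islet and B remained highest, C was lower and A higher than over all cells, and the intervals of A overlapped those of C and of the heterozygous islet. In the islets, 44 heterozygous macrophages held 1 Spp1 UMI (5.91 CPM), and the homozygous type labelled unknown had 51.2 CPM. The part of macrophage RNA was not tested further.

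**Figure D4:**
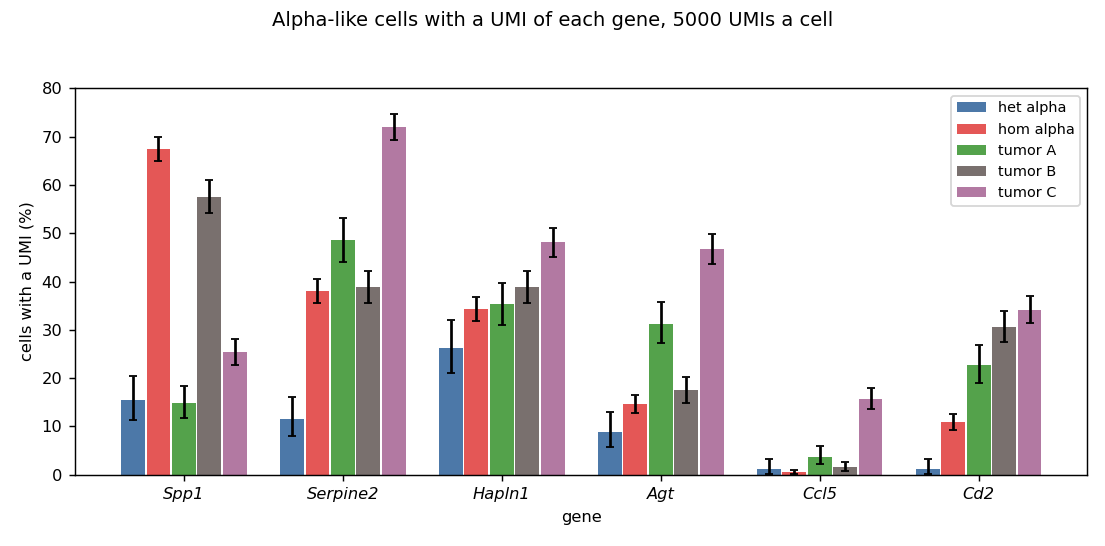
Share of alpha-like cells with a UMI of each gene after thinning to 5000 UMIs a cell, by library, with exact binomial intervals (95%). For Spp1 hom (67.6%) and tumor B (57.6%) exceed the others, and for Cd2 the 3 tumors (22.8% to 34.2%) exceed both islets.

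Of 9 genes for osteopontin receptors, 3 reached 5 CPM in 2 libraries. The integrin subunit genes Itgav and Itgb1 ranged over the 5 libraries from 25.2 to 41.0 and from 58.2 to 83.7 CPM, and Cd44 stayed at or under 2.75 CPM. By Pearson r of log2(CPM + 1) over 17 units of library and cell type (tumors: library and cluster), the genes most like Spp1 among 13941 were Gpx3 (r = 0.788), Fbxo36 (r = 0.775) and Smarca1 (r = 0.746). The units share 5 libraries and differ in depth, so these values describe a pattern.

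Over all cells, Ccl5 was high in 1 tumor. It had 1.87 CPM (0.685 to 4.06) in alpha cells of the heterozygous and 1.31 CPM (0.876 to 1.88) in those of the homozygous islet, from 6 and 29 UMIs, and these intervals overlap. Tumors A and B had 9.32 and 5.27 CPM and tumor C 129 CPM, a mean of 48.0 ± 70.5 CPM (SD, n = 3). The highest tumor had 24.6 times the level of the lowest. In C 41.2% of cells had a Ccl5 UMI, and 15.7% after thinning to 5000 UMIs, against thinned shares of 3.76% in A, 1.54% in B, 1.16% in heterozygous and 0.491% in homozygous alpha cells. Within C the top 10% of cells by UMI count held 86.0% of the UMIs, and 1 cell held 183. Ranked by CPM, the top 10% stood at 1224 CPM. The other cells of C stood at 20.6 CPM, still above the levels of A and B.

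Immune cell marker RNA was highest in tumor C, as Ccl5 was. The T and NK cell markers, 9 of 11 of which were in the tables, summed to 36.3 CPM in C with all 9 present, against 13.9 in A, 5.00 in B, 9.64 in heterozygous and 4.92 in homozygous alpha cells. Within C, the sum without Lck was 165 CPM in the 10% of cells highest in Ccl5 and 11.4 CPM in the rest. Macrophage markers stood at 665 and 264 CPM and Gcg at 301171 and 313592 CPM in those cells. The 853 of 1084 cells of C with no UMI of the T and NK markers other than Lck had 89.4 CPM (84.9 to 94.0) of Ccl5, and the 37 with no macrophage marker UMI either had 35.6 CPM (20.7 to 57.0). Without either kind of marker UMI, 43 cells of A had 41.6 CPM (25.8 to 63.6) from 21 UMIs. In 251 such cells of B it was 1.98 CPM (1.02 to 3.45). C thus did not stand above A in these few cells. Over all cells, 1 cell of A held 19 Ccl5 UMIs and 1 cell of B held 38. The 21 UMIs in A could thus come mostly from 1 cell, which was not tested, and the intervals cover counting error only. Cells without marker UMIs also had fewer UMIs on average than all cells of their library. Among islet cells, heterozygous macrophages had 248 CPM, from 42 UMIs in 11.4% of 44 cells. The homozygous type labelled unknown had 106 CPM, from 29 UMIs in 3.49% of 86 cells, so both levels came from a few cells. Over all cells, macrophage markers (8 of 9 in the tables) summed to 299.9 CPM in C, against 208 in A, 51.4 in B, 196 in heterozygous and 81.6 in homozygous alpha cells. The 5 red blood cell markers also set C apart, at 299 CPM against 3.72 to 36.1 CPM in the other 4 libraries. Against A and B, C also had more RNA of other pancreatic cells: Ins2 (insulin) stood at 2604 CPM in C against 0.198 and 2.04, Sst (somatostatin) at 639 against 7.53 and 0.487, and Ctrb1 (an acinar protease) at 83.6 against 6.44 and 0.443 CPM. In islet alpha cells Ins2 and Sst were higher still, at 38150 and 1019 CPM in the heterozygous and 6605 and 3069 CPM in the homozygous islet. Tumor C was the highest tumor in Ccl5, Serpine2, Agt, Hapln1 and Cd2, and the part of these other cells' RNA in the levels was not tested.

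Of 13 chemokine and receptor genes, 4 reached 5 CPM in 2 libraries. The receptor genes Ccr1 and Ccr3 stayed at or under 0.276 CPM. Cxcl10, an interferon-induced chemokine, had 1.24, 0.0451, 22.7, 1.86 and 35.6 CPM in heterozygous, homozygous, A, B and C cells. Ccl4 had 13.5, 0.708 and 20.5 CPM in the tumors, so among the tumors both were lowest in B, as Ccl5 was. The genes most like Ccl5 over the 17 units were Ms4a4b (r = 0.863), Ccl4 (r = 0.840) and Cxcl2 (r = 0.803).

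Serpine2 stood higher in the homozygous than in the heterozygous islet, and its tumor levels lay around or above the homozygous one. It had 20.2 CPM (15.6 to 25.8) and 132 CPM (128 to 137) in the islets, a ratio of 6.54 (5.12 to 8.501). Tumors A, B and C had 160.1, 105 and 272 CPM, a mean of 179 ± 85.1 CPM (SD, n = 3). Tumor B lay below the homozygous alpha cells, A and C lay above them, and all 3 lay above the heterozygous ones. The thinned shares of cells were 11.6%, 38.1%, 48.6%, 38.8% and 72.1% in the same order, and the top 10% of cells held 69.2%, 41.3%, 31.9%, 27.6% and 22.8% of the UMIs. These shares were below those of Spp1 in the homozygous islet and the 3 tumors, and above it in the heterozygous islet, where Serpine2 had 65 UMIs. Fewer UMIs raise such a share. Spp1 had fewer than Serpine2 in A (354 against 1615) and C (2947 against 5915), and more in the homozygous islet and B.

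Cells of vessels and stroma carried Serpine2 too. Endothelial cells had 152 and 231 CPM in the heterozygous and homozygous islet, stellate cells 599.9 and 289 CPM, and beta cells 1.85 and 8.90 CPM. The 7 stellate markers summed to 12.1, 2.12 and 32.0 CPM in A, B and C, the tumors' order in Serpine2, against 31.7 and 21.3 CPM in islet alpha cells and 23609 CPM in heterozygous stellate cells. In B, Col3a1, Pdgfrb and Dcn were at 0. The 6 endothelial markers summed to 28.8, 4.78 and 38.7 CPM in the tumors and 41.0 and 22.2 CPM in the islet alpha cells, and their part in the Serpine2 level was not tested.

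Of 16 genes for targets, receptors and other serpins, 7 reached 5 CPM in 2 libraries. Serping1, the inhibitor of complement C1, had 115, 226, 146, 245 and 357 CPM, with tumors on both sides of the homozygous level. The protease genes Plau (urokinase) and F2 (thrombin) and the receptor gene F2r stayed at or under 1.90 CPM. The genes most like Serpine2 were Rcn1 (r = 0.941), Cdc16 (r = 0.934) and Cald1 (r = 0.931).

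Agt was the member that differed most between clusters of 1 tumor. Alpha cells had 20.2 CPM (15.6 to 25.8) in the heterozygous and 43.9 CPM (41.2 to 46.8) in the homozygous islet, a ratio of 2.172 (1.69 to 2.84). Tumors A, B and C had 104, 44.97 and 194 CPM, a mean of 114 ± 75.2 CPM (SD, n = 3). Tumor B lay within the interval of the homozygous alpha cells, and A and C lay above it. In tumor C, the authors' clusters 4 and 2 had 361 and 92.2 CPM, a ratio of 3.92 (3.67 to 4.19), and homozygous alpha clusters 2.1 and 2.2 had 57.2 and 20.2 CPM, a ratio of 2.83 (2.39 to 3.38). Clusters were made from these same cells, so the ratios only describe them. Beta cells ran the other way between genotypes, with 14.9 and 5.16 CPM, a ratio of 0.346 (0.227 to 0.508).

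Of 12 genes of the renin-angiotensin system, 4 reached 5 CPM in 2 libraries. Renin (Ren1) and the angiotensin receptor genes Agtr1a, Agtr1b and Agtr2 stayed at or under 0.622 CPM. The genes most like Agt were Ids (r = 0.913), Gm11974 (r = 0.911) and LOC102642507 (r = 0.882).

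Hapln1 had the narrowest spread of the 6 genes over the tumors, with a highest level 1.497 times the lowest. Its level was 57.8 CPM (49.8 to 66.8) and 99.9 CPM (95.8 to 104) in the islets, a ratio of 1.73 (1.49 to 2.02), and 114, 126 and 171 CPM in A, B and C, a mean of 137 ± 30.1 CPM (SD, n = 3). All 3 tumors lay above both islets, and A and B had overlapping intervals. Without 8 hormone transcripts in the totals, the homozygous islet had 200 CPM, above A (182 CPM) and B (178 CPM) and below C (251 CPM). Homozygous clusters 2.1 and 2.2 had 121 and 62.4 CPM. Endothelial cells had 65.6 and 30.03 CPM in the heterozygous and homozygous islet and beta cells 8.28 and 6.77 CPM. Of 16 hyaluronan and link protein genes, 3 reached 5 CPM in 2 libraries; the synthase genes Has1, Has2 and Has3 stayed at or under 0.413 CPM and the proteoglycan genes Acan, Bcan, Ncan and Vcan at or under 1.31 CPM. Hapln4, another link protein, had 1.55, 8.84, 17.5, 20.7 and 9.37 CPM, low in the heterozygous islet as Hapln1 was. The genes most like Hapln1 were Tob1 (r = 0.926), Ubqln2 (r = 0.896) and Pla2g12a (r = 0.893).

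Cd2 was near 0 in the heterozygous islet and present in every tumor. Alpha cells had 1.55 CPM (0.505 to 3.63) from 5 UMIs in the heterozygous and 28.5 CPM (26.3 to 30.8) from 631 UMIs in the homozygous islet, a ratio of 18.3 (7.81 to 56.6). Tumors A, B and C had 65.9, 71.3 and 100.4 CPM, a mean of 79.2 ± 18.6 CPM (SD, n = 3). All 3 lay above both islets, and A and B had overlapping intervals. The thinned shares of cells were 1.16%, 10.9%, 22.8%, 30.6% and 34.2%, and 0 of 17 homozygous endothelial cells had Cd2. Clusters 4 and 2 of C had 181 and 51.4 CPM, a ratio of 3.52 (3.21 to 3.86), and homozygous clusters 2.1 and 2.2 had 35.3 and 16.6 CPM.

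Of the 9 T and NK cell markers 5 were at 0 in homozygous alpha cells, Cd3d, Cd3e, Cd8a, Nkg7 and Gzmb, beside 631 UMIs of Cd2. At 5000 UMIs a cell, a T or NK marker was found in 1.94% of homozygous cells with Cd2 and 2.36% without. The shares were 4.59% and 5.14% in A, 3.10% and 2.40% in B, and 13.2% and 10.4% in C. Lck alone gave 4.33 of the 4.92 CPM of these markers in homozygous cells and 11.1 of 36.3 CPM in C. In C the other 8 markers summed to 72.5 CPM in the 10% of cells highest in Cd2 and 19.7 CPM in the rest, so by level they were higher beside Cd2 there. Cells of C with no UMI of those 8 markers had 99.8 CPM (95.1 to 105) of Cd2, near the 100.4 CPM of all its cells. Of 8 ligands and partners of Cd2, 7 were in the tables and 5 reached 5 CPM in 2 libraries, and the ligand gene Cd48 stayed at or under 2.02 CPM. Cd59a, a complement regulator, had 84.6 and 236 CPM in the islets and 85.1, 95.6 and 77.0 CPM in A, B and C, so its homozygous level was not shared by the tumors. The genes most like Cd2 were Guca2a (r = 0.919), Dapl1 (r = 0.915) and Sct (r = 0.906), of which Guca2a encodes guanylin and Sct secretin. Among the members, Agt was most like Hapln1 (r = 0.828) and Cd2 (r = 0.794).

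Counts over the members repeat the rule that chose them. In alpha cells, where Ccl5 was under the filter of 5 CPM in 1 islet, 4 of 6 members stood at least 2 times higher in the homozygous islet, against 2.48% of 9950 genes, whose median ratio was 0.761. All 3 tumors lay above both islets for 4 of 6 members, without Spp1 and Serpine2, against 35.6% of 10127 genes. The mean log2(CPM + 1) of the tumors minus that of the islets was 1 or more for 4 of 6, against 8.76%, with a median of 1.66 over the members and 0.28 over all genes. Spp1 differed by -0.51, by 0.39 without tumor A and by -2.36 against the homozygous islet alone.

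Splits of cells within libraries are other contrasts than those between genotypes, tumors and islets, but they are not independent of the choice of the members, which also looked at clusters and was made with earlier results of these data known. The 1st split was by Slc38a5, with cells called positive if they kept a UMI at 5000 UMIs (69 and 190 positive and negative cells in the heterozygous islet, 992 and 435 in the homozygous islet, 407 and 72 in A, 816 and 26 in B and 1032 and 36 in C). The mean CPM per class was fitted with limma on log2(CPM + 1), with library as a block. Of 10961 genes 18 higher (0.164%) and 5 lower (0.0456%) passed a Benjamini-Hochberg adjusted p of 0.05 in positive cells, 0.21% in all, and 0 of the 6 members did. Of the members 4 had an unadjusted p under 0.05, as had 1691 of the 10961 genes, and edgeR called 2 members, Hapln1 and Ccl5. Library sums tested with edgeR gave 56 higher (0.511%) and 52 lower (0.474%), and DESeq2, which kept 1398 genes, 26 higher (1.86%) and 29 lower (2.07%). TMM scaling turned the split to 6 and 12 and moved the median difference of all genes by -0.11, from 0.15; no member changed direction under it.

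Hapln1 and Serpine2 came nearest to the threshold. Hapln1 had 75.6 and 52.2 CPM in positive and negative cells of the heterozygous islet, 115 and 59.1 in the homozygous islet, 117 and 49.0 in A, 125 and 102 in B and 168 and 148 in C. It was higher in 5 of 5 libraries, by 0.64 ± 0.14 (log2, SE; limma adjusted p = 0.0671), and edgeR gave an adjusted p of 0.0478. Serpine2 had 28.4 and 17.4 CPM, 154 and 98.1, 163 and 99.4, 106 and 75.3, and 277.3 and 276.9 in the same order. It too was higher in 5 of 5, by 0.50 ± 0.11 (limma adjusted p = 0.0743, and 0.0414 without C, where the classes were nearly equal). For Serpine2 edgeR gave an adjusted p of 0.138. With TMM scaling the limma adjusted p was 0.210 for Hapln1 and 0.293 for Serpine2. Without a filter on low values it was 0.399 for both. Of 14 alternatives, 3 passed for Hapln1 and 2 for Serpine2.

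The other 4 members had wider errors. Ccl5 was higher in 5 of 5 libraries, by 1.01 ± 0.31 (limma adjusted p = 0.162, edgeR adjusted p = 0.00796), with 140.1 and 29.4 CPM in C, where negative cells held 19 UMIs, and 1 UMI in negative cells of B. Cd2 was higher in 4 of 5, by 0.76 ± 0.20 (limma adjusted p = 0.115), with 32.2 and 14.4 CPM in the homozygous islet but 97.2 and 112 in C. Agt was higher in 3 of 5, by 0.34 ± 0.16 (limma adjusted p = 0.329), with 52.1 and 25.7 CPM in the homozygous islet and 188 and 229.8 in C. Spp1 went both ways, lower in 2 of 5, at -0.06 ± 0.14 (limma adjusted p = 0.888), with 668 and 596 CPM in the homozygous islet and 133 and 245 in C.

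**Figure D5:**
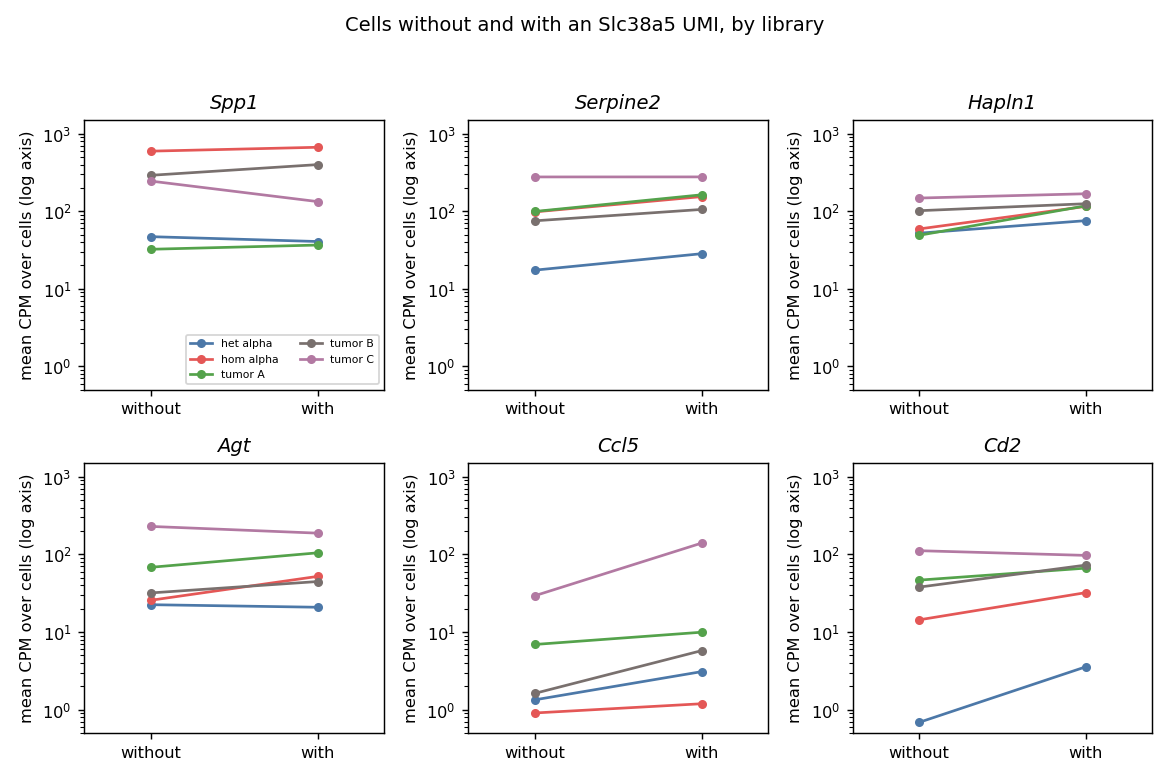
Mean CPM over alpha-like cells without and with an Slc38a5 UMI (log axis), with 1 line per library, for the 6 genes. Hapln1 and Serpine2 are higher with Slc38a5 in all 5 libraries, with Serpine2 of tumor C almost flat, while the Spp1 lines run both ways.

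Depth and cluster moved with this split. Positive cells had the higher median depth in all 5 libraries, for example 11849 against 10558 UMIs in the heterozygous islet and 20970 against 16522 in A. In the homozygous islet 78.6% of positive and 28.7% of negative cells were of cluster 2.1, and in C 33.9% and 86.1% were of cluster 4, which had more Agt and Cd2. Their part in the differences was not tested.

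Among genes past the threshold at 50 CPM or more, Peg10, a paternally expressed gene, had the largest rise in positive cells (1.57 ± 0.18, limma adjusted p = 0.00262), followed by Sct, Cd24a and Fxyd3. The immediate early genes Atf3 and Ier2, with Errfi1, were among the largest falls. None of 4 osteopontin receptor, 8 serpin, 3 hyaluronan, 7 chemokine and 5 Cd2 partner genes passed with limma. Of them 2, 2, 1, 1 and 0 had an unadjusted p under 0.05, beside 1691 of all 10961 genes. With edgeR 1 was called, the hyaluronan receptor gene Hmmr. The calls rested on single libraries, with 0 and 0 higher and lower without A, 6 and 1 without B, 7 and 1 without C, 3 and 1 without the homozygous and 150 and 15 without the heterozygous islet. Peg10 passed in 11 of 14 alternatives.

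The 2nd split was of tumor cells with UMIs of at least 2 of 11 cell cycle genes at 5000 UMIs, called cycling (27 and 452 cycling and other cells in A, 40 and 802 in B and 66 and 1002 in C). Of 10847 genes 1007 higher (9.28%) and 183 lower (1.69%) passed with limma, 1049 higher (9.67%) and 527 lower (4.86%) with edgeR, and 652 higher (6.01%) and 143 lower (1.32%) with DESeq2. TMM scaling gave 770 and 470 and moved the median of all genes by -0.13, from 0.06, and no member changed direction under it. At 50 CPM or more, the mitotic genes Nusap1, Pbk, Cdca3 and Cenpa rose most, and Egr4, Ppy, Ins1 and Fam213b fell most.

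Of the 6 members 0 passed as higher and 1 as lower. Ccl5 had 2.44 and 9.90 CPM in cycling and other cells of A (2 and 92 UMIs), 2.21 and 5.80 in B (2 and 117 UMIs) and 123 and 137 in C (164 and 2649 UMIs). It was lower in cycling cells in 3 of 3 tumors, by -0.97 ± 0.29 (limma adjusted p = 0.0400), on very few UMIs in A and B. The call was lost in 7 of 12 alternatives, with adjusted p from 0.0108 to 0.926, among them 0.0563 with edgeR, 0.134 without A and 0.0818 without C.

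Serpine2 was higher in cycling cells in 3 of 3 tumors, with 182 and 152 CPM in A, 137 and 103 in B and 296 and 276 in C, but did not pass (0.26 ± 0.12, limma adjusted p = 0.200). Spp1 differed by -0.29 ± 0.17 (limma adjusted p = 0.313), with 439 and 394 CPM in B and 76.2 and 141 in C, so the tumors disagreed. Hapln1, Agt and Cd2 differed by -0.15 ± 0.15, -0.10 ± 0.18 and -0.26 ± 0.18, each lower in 2 of 3, with limma adjusted p of 0.601, 0.818 and 0.446; for Cd2 it was 0.0437 without B. In the pathway lists Hmmr, a hyaluronan receptor that also sits on the mitotic spindle, rose (1 of 3 tested, 5.52 ± 0.23, limma adjusted p = 5.86e-11). The chemokine gene Cxcl1 fell (1 of 7 tested, -1.62 ± 0.46, limma adjusted p = 0.0282), and none of 3 osteopontin receptor, 7 serpin and 5 Cd2 partner genes passed with limma or edgeR or had an unadjusted p under 0.05. With edgeR the chemokine genes Ccl4 and Cx3cl1 passed and Cxcl1 did not.

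The 3rd split was by Spp1 itself (40 and 219 positive and negative cells in the heterozygous islet, 964 and 463 in the homozygous islet, 71 and 408 in A, 485 and 357 in B and 271 and 797 in C). With limma 0 of 10915 genes passed in either direction (0.0%), and 353 had an unadjusted p under 0.05. With edgeR 10 higher (0.0916%) and 5 lower (0.0458%) passed, and with DESeq2 1 higher (0.00916%) and 0 lower (0.0%). Serpine2 and Hapln1 differed by -0.0001 ± 0.07 and -0.10 ± 0.08, with limma adjusted p of 0.999 and 0.848. Agt, Ccl5 and Cd2 differed by 0.06 ± 0.09, -0.04 ± 0.42 and 0.49 ± 0.27, with limma adjusted p of 0.902, 0.983 and 0.848. No gene of the 6 pathway lists passed with limma, edgeR or DESeq2, and 1, the receptor gene Lrp8, had an unadjusted p under 0.05.

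Agt and Serpine2, singled out after their values were seen, had lower mean levels beside Spp1 in both islets and higher ones in all 3 tumors. Agt had 17.9 and 22.8 CPM with and without Spp1 in the heterozygous islet and 43.1 and 45.9 in the homozygous islet, against 119 and 95.9 in A, 46.7 and 41.2 in B and 212 and 182 in C. Serpine2 had 17.0 and 20.9 and 136 and 141 CPM in the heterozygous and homozygous islet, and 154.3 and 153.3 in A, 111 and 96.4 in B and 296 and 271 in C. The heterozygous values with Spp1 rest on 10 UMIs of Agt and 8 of Serpine2. By detection the pattern did not hold throughout, with Agt in 14.6% and 14.5% of homozygous cells with and without Spp1 and Serpine2 in 72.0% and 72.1% of cells of C. The tumor difference exceeded the islet difference by 0.45 ± 0.14 for Agt and 0.28 ± 0.12 for Serpine2 (log2, SE), which did not pass over all genes (limma adjusted p = 0.599 for both). Of the genes that edgeR called, Serpina7, a serpin that carries thyroxine, was named after its values were seen. It had 43.2 and 23.96 CPM with and without Spp1 in the homozygous islet and was higher in 5 of 5 libraries (edgeR adjusted p = 5.62e-05, limma adjusted p = 0.848).

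Detection of members together in single cells differed between libraries; the pairs given here were chosen after their values were seen and are a description. In the homozygous islet 15.5% and 8.03% of cells with and without Serpine2 had Cd2, against 29.4% and 31.5% in B. Serpine2 was found in 49.5% and 36.1% of homozygous cells with and without Agt, and in 37.4% and 39.1% in B. In C 41.3% and 27.9% of cells with and without Agt had Cd2, both of which were higher in cluster 4. Spp1 was found in 67.8% and 67.5% of homozygous cells with and without Agt, a difference of less than 1 percentage point.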

How the data were processed

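Expression in the tables the authors deposited is a signal: UMIs of a gene over the total of its cell, times a constant that was found from the values. Cell totals are deposited as counts, and multiplying back gave whole UMIs for 100.0% of values within 0.01. As tools the submitters' processing notes list CASAVA 1.8, GSNAP and bcl2fastq 2.17, with the build GRCm38. The design had foreseen counts and edgeR; as the unit was a signal, limma 3.58.1 became the main test, with edgeR 4.0.16 and DESeq2 1.42.0 on summed UMIs as alternatives. No cell was below 1000 UMIs or 500 genes or above 20% mitochondrial UMIs. Scrublet, as run in scanpy 1.11.5, removed 8, 1, 18, 9 and 15 doublets from the heterozygous, homozygous, A, B and C libraries of 22174810, 34101553, 10508498, 22893238 and 22161240 UMIs. A gene was tested at 5 CPM or more in 2 library-classes, each of 20 cells or more. Changes on the log2(CPM + 1) scale understate those of low genes. Genes named were the 6 members, in each fit up to 4 genes that rose and 4 that fell most, of those called with 1 direction in every library at 50 CPM or more and with predicted genes left out, up to 3 called per pathway list, the 3 most like each member, and the checks Gcgr, Gcg and Slc38a5; pathway genes named for their level were picked after it was seen. The members, lists and tests were chosen with earlier results of these data known. The fits were tested on simulated data. Alternatives are listed in the closing section. Some genes of the lists are not reported here.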

Additional observations from a re-analysis of the deposited data

How the results depend on the processing

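The number of genes called by Slc38a5, 18 higher and 5 lower, was not stable. It was 52 and 13 with a pseudocount of 5, 0 and 0 without a filter on low values, 57 and 11 with a filter at 20 CPM, 6 and 12 with TMM scaling, 56 and 52 with edgeR, 26 and 29 with DESeq2, 24 and 9 after thinning to 3000 UMIs, and 0 to 150 higher and 0 to 15 lower when 1 library was left out. In cycling cells, against 1007 and 183, it was 392 and 10 without a filter, 770 and 470 with TMM scaling, 1049 and 527 with edgeR and 652 and 143 with DESeq2. By Spp1, against 0 and 0, it was 10 and 5 with edgeR and 1 and 0 with DESeq2. The library is the block that pairs the classes of cells; with no replicate block the counts were 0 and 0 by Slc38a5 and 342 and 1 in cycling cells. No paired analysis was possible between genotypes or tumors because the islet groups have 1 library each and the tumor libraries carry no number that the islets share.

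Several differences near 0 changed sign. Leaving out 1 library gave -0.183 to 0.149 for Spp1 by Slc38a5 and -0.405 to 0.185 for Agt in cycling cells. By Spp1 it gave -0.0493 to 0.0703 for Serpine2, -0.143 to 0.00786 for Hapln1, -0.00533 to 0.155 for Agt and -0.580 to 0.298 for Ccl5. Serpine2 by Spp1 was 0.00776 with a pseudocount of 5, 0.00795 with TMM scaling, 0.0427 with edgeR, 0.0418 with DESeq2 and 4.71e-04 with doublets kept. Ccl5 was 0.192 with edgeR and 0.0404 with DESeq2, and after thinning to 3000 UMIs Agt was -0.0117 and Cd2 -0.200. Spp1 in tumors minus islets ran from -1.36 to 0.391 without 1 tumor. Over the members, the median level moved from 126 to 188 CPM without 8 hormone transcripts in the totals, the tumor difference from 1.66 to 0.78 against the homozygous islet alone, and the share from 32.2% to 24.4% at 3000 UMIs. The causes were not tested.

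Over all alternatives, values of genes in a test kept direction and side of the threshold in 370 cases, lost the call in 59, gained it in 7 and changed sign in 17. Levels in cells without T, NK (Lck left out) or macrophage marker UMIs were added after the data were seen. Low counts limit Ccl5 in A, B and the islets, and Cd2 in the heterozygous islet. By Slc38a5, positive and negative cells held 85 and 9 Ccl5 UMIs in A and 118 and 1 in B.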
